A study of Mus musculus with 8 samples.

Results

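The 10 genes described here are markers of macrophages in mouse colon tumors: Trem2, Tyrobp, C1qa, C1qb, Cd68, Fcgr3, Csf1r, Srgn, Mrc1 and Cd163. They were taken by symbol, as every probe on the array that the scanner files name with one of these symbols, which gave 14 probes among 41174 non-control probes. All 14 probes passed the filter on dim values that 31871 probes passed, and the 10 genes are 10 of the 21638 genes with a probe in the analysis. The genes were picked because they differed, or failed to differ, between tumor and normal colon in these same samples. Their own differences are therefore given as a description without p-values, and counts of their probes past a test threshold are not read as a result. Each value is a log2 value from the authors' table, 1 unit being a doubling, and the brightest probe stands for a gene where a gene has more than 1.

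RNA was measured on 1-colour arrays in 4 colon adenomas from C57BL/6 mice of the genotype Tcf4Het ApcHet and in 4 normal colon samples from C57BL/6 mice of the genotype TCF4WT ApcHet. All 8 samples therefore carry the heterozygous Apc mutation, which the growth protocol names ApcMin, and the tumors alone carry the heterozygous Tcf4 mutation, so that the tumor state and the Tcf4 genotype cannot be told apart. The protocol names the distal 2.5 cm of colon from littermates as the source of total RNA, the titles call the mice adult, and the design calls the samples independent. These are pieces of whole tissue with no sorting of cells, so more macrophages and more RNA of a gene per macrophage cannot be told apart in any of the results.

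The samples are those of the table's column labels, which differ in part from the labels of the scanner files. Of the 8 columns, 4 matched a scanner file at a Spearman correlation of 1.0, but just 1 of them, tumor 1, matched the file of its own sample. Column tumor 2 matched the file under normal 4, normal 1 the file under normal 2 and normal 2 the file under normal 3. The other 4 columns had no matching file, with a highest Spearman correlation of 0.989. Samples that share a number are called pairs below, although the titles give the number alone and do not call them matched. By the matching files, pair 1 (tumor 1 and normal 1) lies within slide 1 and pair 2 within slide 2. The slide of the 4 columns without a file is not known. The normals were not all alike. The sample labelled normal 3 had a Pearson correlation over the probes kept of 0.946 to 0.967 with each tumor, and 0.857 to 0.936 with normals 1, 2 and 4. Normal 1 was at 0.918 to 0.951 with the tumors and 0.934 to 0.936 with the other normals. Normals 2 and 4 were at 0.986 with each other. The share of probes well above background was 55.6% to 82.8% over the 8 files, and the number of arrays, 4 per group, limits the precision.

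Macrophages of the gut lie beneath the epithelium, where they take up dying cells and microbes, and many of them are renewed from blood monocytes. Trem2 is a surface receptor for lipids and dying cells that has no signalling tail of its own and signals through the adaptor protein encoded by Tyrobp, and it marks lipid-handling macrophages in tumors and other injured tissue. C1q, the recognition unit of the classical complement pathway, is built from the chains of C1qa, C1qb and C1qc and is made mostly by macrophages. Mrc1, the mannose receptor, and Cd163, the scavenger receptor for haemoglobin bound to haptoglobin, are widely used to mark tissue-resident macrophages.

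The 250 bases before the transcription start are shown for 3 genes that were higher in every tumor (Trem2, Cd68, C1qb) and for both resident markers (Mrc1, Cd163), because the groups did not overlap in the first 3 and overlapped in the others. The sequences and positions are RefSeq's on GRCm38.p6 and are written 5′ to 3′ on the gene's own strand. Capitals mark matches, on either strand, to GAGGAA, a stretch that the macrophage factor PU.1 binds, and to TGANTCA, the AP-1 motif.
Trem2, chr17:48346151-48346400, plus strand: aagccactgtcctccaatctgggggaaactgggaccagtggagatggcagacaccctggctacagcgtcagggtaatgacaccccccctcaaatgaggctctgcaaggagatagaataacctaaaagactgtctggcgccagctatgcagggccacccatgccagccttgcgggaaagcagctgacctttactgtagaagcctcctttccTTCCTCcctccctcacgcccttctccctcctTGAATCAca
Cd68, chr11:69666171-69666420, minus strand: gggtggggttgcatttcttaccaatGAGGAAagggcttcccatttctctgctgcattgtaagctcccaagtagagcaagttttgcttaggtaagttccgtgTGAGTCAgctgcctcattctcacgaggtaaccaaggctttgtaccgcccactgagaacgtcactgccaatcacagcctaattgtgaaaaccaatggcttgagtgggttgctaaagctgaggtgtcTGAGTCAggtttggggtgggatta
C1qb, chr4:136886201-136886450, minus strand: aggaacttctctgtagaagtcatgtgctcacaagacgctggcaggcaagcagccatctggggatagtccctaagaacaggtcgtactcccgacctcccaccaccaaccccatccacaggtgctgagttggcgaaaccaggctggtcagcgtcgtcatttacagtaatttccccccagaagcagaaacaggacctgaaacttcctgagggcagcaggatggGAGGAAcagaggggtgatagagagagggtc
Mrc1, chr2:14229164-14229413, plus strand: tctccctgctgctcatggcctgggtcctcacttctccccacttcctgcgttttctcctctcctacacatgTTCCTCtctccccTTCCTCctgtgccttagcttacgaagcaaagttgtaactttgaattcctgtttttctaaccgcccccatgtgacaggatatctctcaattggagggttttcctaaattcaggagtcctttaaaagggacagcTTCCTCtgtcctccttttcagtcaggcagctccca
Cd163, chr6:124304401-124304650, plus strand: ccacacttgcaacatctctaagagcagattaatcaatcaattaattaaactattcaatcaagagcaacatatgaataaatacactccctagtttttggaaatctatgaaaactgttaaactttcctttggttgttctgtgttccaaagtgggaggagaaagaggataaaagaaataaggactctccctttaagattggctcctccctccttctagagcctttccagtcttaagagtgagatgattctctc
The 5 sequences end at the base before the RefSeq start of transcription. GAGGAA or its complement lies 40 bases before the start in Trem2, 225 in Cd68 and 30 in C1qb, and at 180, 167 and 35 in Mrc1. TGANTCA lies 9 bases before the start in Trem2, as TGAATCA, and at 149 and 24 in Cd68, as TGAGTCA. No matches overlap one another, and the Cd163 window has neither GAGGAA nor TGANTCA. Shorter or other forms of these motifs were not searched for. Of the 7 members with a window in RefSeq's table that could be printed, 5 hold GAGGAA and 2 hold TGANTCA, Fcgr3 being the fifth with GAGGAA and Srgn having neither. Over all 32851 promoter windows of this length, 23.3% hold GAGGAA, 6.75% hold TGANTCA and 1.55% hold both. The motif is thus found in a resident marker as well as in the genes that were higher in tumors, and a match is a stretch of letters, not a measured binding site. Tyrobp, C1qa and Csf1r are named without a sequence.

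Trem2 and its adaptor were higher in all 4 tumors than in any normal colon. The Trem2 probe, on chromosome 17 at 47817764 to 47817823 (mm8), read 12.55, 12.05, 12.33 and 12.38 in tumors 1 to 4, against 10.10, 10.23, 9.91 and 9.62 in normals 1 to 4. The groups were far apart: the lowest tumor lay 1.82 above the highest normal. The mean was 12.33 ± 0.21 in tumors and 9.96 ± 0.27 in normals (SD, n = 4 each), a difference of 2.37 ± 0.18 (SE), or 5.16-fold. Within slide 1 the difference was 2.46 and within slide 2 it was 1.82, each from 1 tumor and 1 normal column. A further Trem2 probe, at 47817462 to 47817598, read 10.09, 9.74, 9.95 and 9.97 in tumors and 8.25, 7.93, 8.40 and 7.34 in normals, a difference of 1.96 ± 0.24. Both probes therefore separated the groups.

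Tyrobp, read by a probe that spans 30124392 to 30126119 on chromosome 7, was 13.78, 13.40, 13.46 and 13.02 in tumors and 11.38, 11.27, 10.93 and 10.47 in normals. Receptor and adaptor thus differed by about the same amount, Tyrobp by 2.40 ± 0.25 or 5.29-fold. In both groups replicate 4 had the lowest Tyrobp value. The adaptor also serves receptors of natural killer cells and neutrophils, whose markers are described further on.

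**Figure D1:**
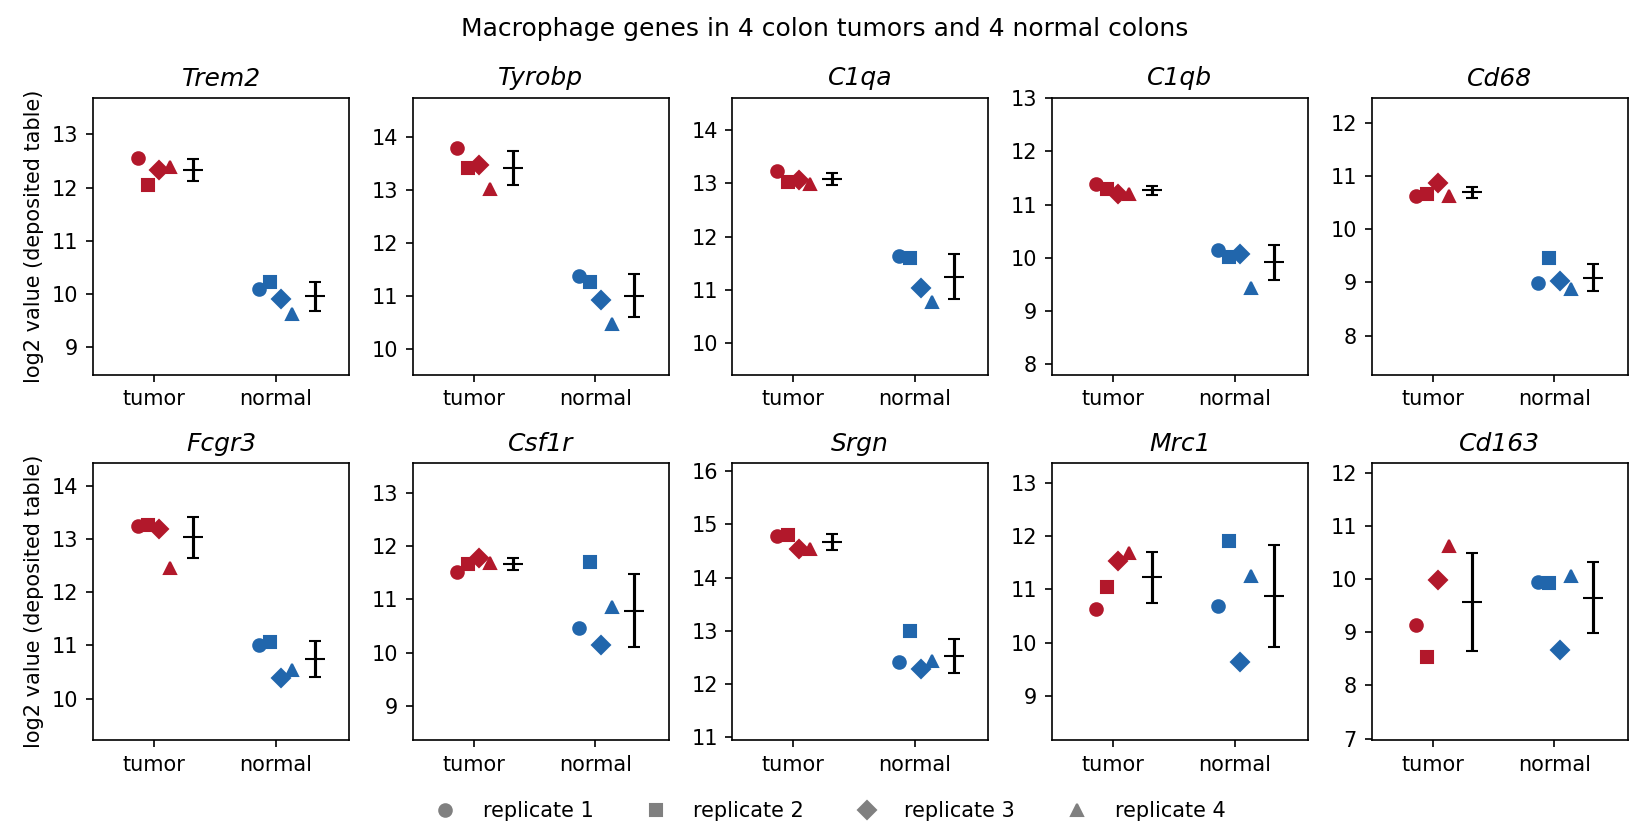
Log2 value of each of the 10 genes (brightest probe) in the 4 tumors (red) and the 4 normal colons (blue), 1 point per sample with the replicate number as the symbol; bars are the mean ± SD, and every vertical axis spans the same number of log2 units around its gene. The tumors lie above all normals in 7 genes, with Trem2 at 12.05 to 12.55 against 9.62 to 10.23, while Csf1r, Mrc1 and Cd163 overlap.

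Of the C1q chains, C1qa differed by more than C1qb. C1qa, on chromosome 4 at 136168570 to 136168629, was 13.24, 13.02, 13.07 and 12.99 in tumors, against 11.63, 11.59, 11.03 and 10.77 in normals. The difference was 1.83 ± 0.22, or 3.55-fold, and the tumors spanned a much narrower range (SD 0.11) than the normals (SD 0.42). C1qb, nearby at 136152739 to 136152798, was 11.38, 11.29, 11.20 and 11.21 in tumors and 10.15, 10.01, 10.07 and 9.43 in normals, a difference of 1.35 ± 0.18 or 2.55-fold. Its tumors had an SD of 0.08, and normal 4 was the low sample among the normals. C1qc, the remaining chain, is not among the 10 genes and is given with the complement genes.

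Cd68, a protein of lysosome membranes in phagocytes, was 10.62, 10.67, 10.86 and 10.63 in tumors and 8.99, 9.46, 9.03 and 8.87 in normals (chromosome 11, 69481007 to 69481066). The difference was 1.61 ± 0.16, or 3.05-fold, with no overlap. Fcgr3, a low-affinity receptor for antibody complexes that is also found on neutrophils and natural killer cells, was 13.24, 13.27, 13.18 and 12.45 in tumors and 11.01, 11.06, 10.38 and 10.53 in normals (chromosome 1, 172888191 to 172888266). Tumor 4 was low within its group but still above every normal, and the difference was 2.29 ± 0.25, or 4.89-fold. A further Fcgr3 probe, at 172890673 to 172890732, differed by 1.68 ± 0.35 with no overlap, and there normal 3 was lowest at 8.56.

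Srgn, the core protein of the proteoglycan that packs granules in macrophages, mast cells, neutrophils and lymphocytes, was 14.79, 14.81, 14.54 and 14.54 in tumors and 12.41, 13, 12.29 and 12.43 in normals (chromosome 10, 61889828 to 61889887). It was higher by 2.14 ± 0.19, or 4.4-fold, with the lowest tumor 1.54 above the highest normal. Since mast cells and neutrophils hold Srgn too, its level is not particular to macrophages.

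Csf1r, the receptor for the macrophage growth factor CSF1, went the same way by less and the groups overlapped. It was 11.52, 11.67, 11.78 and 11.68 in tumors, against 10.47, 11.70, 10.14 and 10.85 in normals, so that normal 2 reached the level of the tumors. The tumors were nearly equal (SD 0.11) and the normals were spread (SD 0.68), with a difference of 0.88 ± 0.32. The further probes overlapped as well, one with a difference of 0.59 ± 0.33 and a dim one, well above background in 6 of 8 files, with 0.98 ± 0.53.

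Mrc1 and Cd163 did not separate the groups. Mrc1, on chromosome 2 at 14249431 to 14249491, was 10.63, 11.05, 11.54 and 11.68 in tumors and 10.69, 11.90, 9.64 and 11.26 in normals. The highest and the lowest of the 8 values were both in normals, normal 2 and normal 3, and the difference of 0.35 ± 0.48 was smaller than its error. Cd163, on chromosome 6 at 124296085 to 124296144, was 9.14, 8.53, 9.98 and 10.62 in tumors and 9.95, 9.92, 8.66 and 10.06 in normals. Here the tumors themselves spanned more than the normals, and the difference was -0.08 ± 0.51. Tumors 1 and 2 were below their same-numbered normals, by -0.82 and -1.39, and tumors 3 and 4 were above theirs, by 1.32 and 0.56. Without normal 3 the difference became -0.06 for Mrc1 and -0.41 for Cd163, while that of Trem2 stayed at 2.35 and that of Tyrobp at 2.37.

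**Figure D2:**
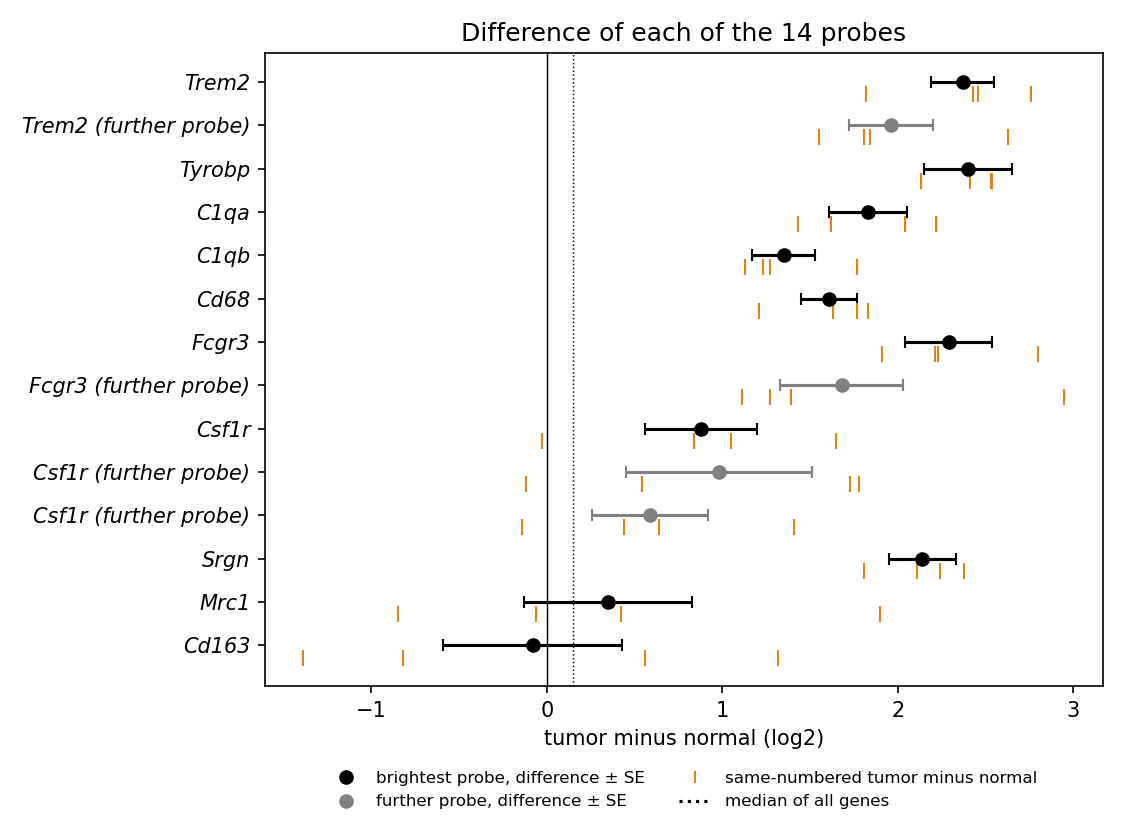
Difference between tumors and normals, in log2 units, of each of the 14 probes with its standard error (black, brightest probe; grey, further probes), and below it the 4 differences between same-numbered samples (orange ticks). All 4 ticks lie above 0 for the 9 probes of Trem2, Tyrobp, C1qa, C1qb, Cd68, Fcgr3 and Srgn, and on both sides of 0 for Csf1r, Mrc1 and Cd163; the dotted line is the median difference of all genes, 0.15.

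In all, 9 of the 14 probes, standing for 7 of the 10 genes, had every tumor above every normal, where 10.2% of all probes did. The same 9 probes passed the limma threshold with the higher value in tumors, where 5.62% of all probes did. All 9 also did so with the replicate number as a block, where 3.92% of all probes did. As the genes were chosen on this comparison, these counts describe the choice and nothing is read from them. In these 7 genes the difference was 1.23 to 2.46 within slide 1 and 1.21 to 2.21 within slide 2. Each slide value rests on 1 tumor and 1 normal column. Without normal 3 the difference in the 7 genes was 1.4 to 2.37. No probe of the 10 genes was among the 7.83% of probes called lower in tumors (7.39% with the block) or the 12.6% with every tumor below every normal.

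The split between the gene kinds can be followed sample by sample. The mean distance from the normals' mean was computed over Trem2, Tyrobp, C1qa, C1qb, Cd68 and Fcgr3. It was 2.14, 1.95, 2.02 and 1.78 in tumors 1 to 4, against 0.21, 0.27, -0.11 and -0.38 in normals 1 to 4. Every tumor stood well above every normal on this scale. The same mean over Mrc1 and Cd163 was -0.38, -0.47, 0.50 and 0.89 in tumors and 0.06, 0.65, -1.11 and 0.40 in normals, with full overlap. Tumors 1 and 2 were thus below 0 on the resident scale and tumors 3 and 4 above it.

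The first mean minus the second was 2.52, 2.42, 1.52 and 0.89 in tumors and 0.15, -0.38, 1.0 and -0.78 in normals. It averaged 1.84 ± 0.77 in tumors and 0 ± 0.77 in normals (SD, n = 4 each). Tumor 4, the tumor with most Mrc1 and Cd163, fell 0.11 short of normal 3, the normal with least, so that the groups overlapped narrowly on this difference. No sample was lowest in everything: among tumors, tumor 1 had the highest Trem2, Tyrobp, C1qa and C1qb and the lowest Cd68, Csf1r and Mrc1. Tumor 4 had the highest Mrc1 and Cd163 and the lowest Tyrobp, C1qa, Fcgr3 and Srgn. Among normals, normal 4 was lowest for Trem2, Tyrobp, C1qa, C1qb and Cd68, and normal 3 for Csf1r, Fcgr3, Mrc1, Cd163 and Srgn.

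**Figure D3:**
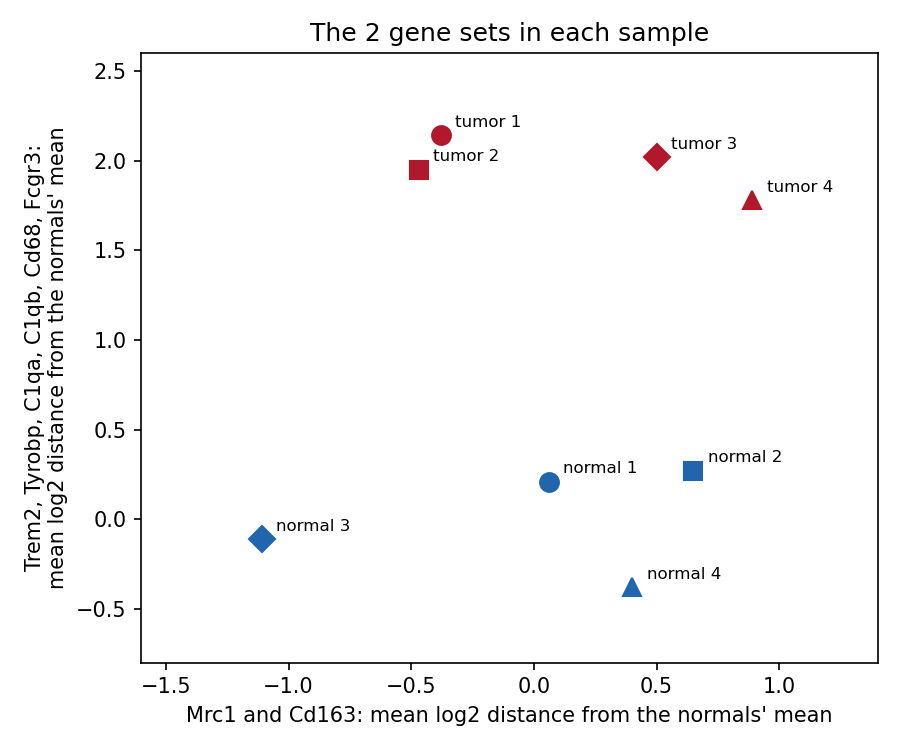
Mean log2 distance from the normals' mean over Trem2, Tyrobp, C1qa, C1qb, Cd68 and Fcgr3 (vertical) against that over Mrc1 and Cd163 (horizontal), 1 point per sample. Tumors lie between 1.78 and 2.14 on the vertical axis and normals between -0.38 and 0.27, while on the horizontal axis both groups spread on both sides of 0.

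Deviations from the group means were set against each other as a description over the 8 columns, which share 1 quantile normalisation. Trem2 ran with C1qa (Pearson 0.83), Tyrobp (0.73) and C1qb (0.68), and Tyrobp with C1qa (0.89). Mrc1 ran with Csf1r (0.89) and Cd163 (0.73), and against C1qb (-0.40). Csf1r also ran with Srgn (0.80) and Cd68 (0.74), and Cd68 with Mrc1 (0.51). Fcgr3 ran with Tyrobp (0.79) and C1qa (0.67) but less with Trem2 (0.32) and C1qb (0.37), and C1qb less with Cd68 (0.33), so these deviations do not divide the genes as the group differences do. Over all 21564 genes with spread in both groups, those most like Trem2 were Car6 (0.973), Unc5a (0.966), Ikzf3 (0.957), Rapgef3 (0.95) and Slc5a6 (0.946), with C1qa at rank 49. Those most like Mrc1 were the transcript TC1637884 (0.994), Medag (0.994), Fstl1 (0.99), Mctp1 (0.987) and Grem1 (0.983). With 8 points such values come readily among this many genes, and they carry no p.

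Other genes of the same pathways were counted from 7 lists, brightest probe per gene, with limma adjusted p-values over all 31871 probes and a threshold of 0.05. Of 104 genes tested, 39 passed, 35 higher and 4 lower in tumors (38 of 103 without Csf2, which passed the filter on dim values through the tumors alone), which is 37.5%, against 13.8% of all 21638 genes (6.64% higher and 7.14% lower, or 4.57% and 6.21% with the pairs as a block). The lists were chosen with earlier results of these samples known, so the share is a description. All 39 kept their direction whichever sample was left out, 0 of 39 kept the call in all 8 such fits, and the genes named by rule kept it in 1 to 6 of the 8. The count depends most on tumor 3 and normal 4, without which almost all calls were lost.

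Several receptors that couple to Tyrobp or to the related adaptor Fcer1g rose in tumors. Of 14 adaptor-coupled receptors and signal proteins, 6 rose, 0 fell and 8 did not pass (7 rose with the pairs as a block), with a median difference of 1.03, against 0.15 over all genes. Clec4e, a receptor for mycobacterial lipid and dead cells that uses Fcer1g, was 11.75, 11.40, 11.37 and 10.40 in tumors, against 6.58, 7.84, 8.53 and 5.50 in normals. It rose by 4.12 ± 0.65 (limma adjusted p = 0.0171), and 1 normal lay below the detection limit of 5.59. Normal 1, at 6.58, lay below the limit of its own column, 7.70. Trem1, the amplifier of inflammation on neutrophils and monocytes, rose by 3.20 ± 0.47 (adjusted p = 0.0151), with normal 1 again below its column's limit at 6.91. Sirpb1a rose by 2.67 ± 0.36 (adjusted p = 0.0139). The adaptor Fcer1g itself, named after its values were seen, was 12.97, 12.73, 12.89 and 12.30 in tumors and 10.95, 10.48, 11.75 and 10.06 in normals (1.91 ± 0.36, adjusted p = 0.0218). By contrast Syk, the kinase downstream of both adaptors and common in many cells, was at -0.09 ± 0.16 (adjusted p = 0.665), and Hcst, another adaptor, at -0.45 ± 0.40 (adjusted p = 0.408). Calls fell to 0 without tumor 3, 1 without normal 4 and 2 without tumor 2.

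Among Fc receptors and early complement genes, 4 of 11 rose and 0 fell, the other 7 not passing (5 rose with the block). The median was 0.92, and 0.41 without normal 3. C1qc was 14.26, 14.24, 14.21 and 14.13 in tumors and 12.75, 13.13, 11.82 and 12.40 in normals. All C1q chains were thus higher in every tumor, C1qc by 1.68 ± 0.27 (3.21-fold, limma adjusted p = 0.0173). Fcgr1, the high-affinity antibody receptor of macrophages, was 11.92, 11.87, 12.18 and 11.63 in tumors and 9.82, 10.43, 8.81 and 9.47 in normals (2.27 ± 0.33, adjusted p = 0.0151). Fcgr4 rose by 1.78 ± 0.30 (adjusted p = 0.0186). Without tumor 2, tumor 3 or normal 4 the count was 0.

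Genes of lipid handling and lysosomes split. Of 19 tested, 5 rose, 2 fell and 12 did not pass, with a median of 0.16, about that of all genes (4 rose and 1 fell with the pairs as a block). Spp1, the secreted protein osteopontin, was 14.05, 14.05, 13.37 and 13.76 in tumors, against 7.85, 8.40, 11.81 and 7.15 in normals. It rose by 5.01 ± 0.93, or 32.1-fold (limma adjusted p = 0.0212), and normal 3 was far above normals 1, 2 and 4 but below every tumor. Apoe, a lipid carrier and ligand of Trem2, was 16.40, 16.94, 16.41 and 15.97 in tumors and 14.81, 15.51, 14.61 and 15.05 in normals (1.44 ± 0.27, adjusted p = 0.0212). Gpnmb, a glycoprotein of lipid-laden macrophages, rose by 1.25 ± 0.25 (adjusted p = 0.0243).

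Lgals3, which colon epithelium also makes in quantity, fell by 0.81 ± 0.17 (limma adjusted p = 0.0259). Its source was not measured, and neither was that of the lipid and lysosome genes that rose. Lipa, the lysosomal acid lipase, fell by 0.61 ± 0.15 (adjusted p = 0.0377), a call lost with the block (adjusted p = 0.0628). Lpl and Cd9, which are often listed with Trem2 in lipid-laden macrophages, were at -0.56 ± 0.70 (adjusted p = 0.549) and -0.05 ± 0.13 (adjusted p = 0.793). Of the lipid and lysosome genes, 0 were called without normal 1, normal 4, tumor 1, tumor 2 or tumor 3, and 1 without normal 2.

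Some growth factors and recruiting signals of macrophages rose in tumors. Of 16 genes of the CSF1 axis and lineage factors, 5 rose, 0 fell and 11 did not pass (median 0.97). One of the 5, Csf2, passed the filter on dim values through the tumors alone; without it the count was 4 of 15 and the median 0.94. Csf1, named after its values were seen, is the ligand of the Csf1r product and was 11.22, 11.67, 11.33 and 11.22 in tumors and 9.85, 10.71, 9.20 and 10.20 in normals. The ligand thus separated the groups where the receptor did not, with a rise of 1.37 ± 0.31 (limma adjusted p = 0.0322). Ccl2, which draws monocytes from blood, was 12.55, 11.79, 13.42 and 10.86 in tumors and 8.67, 10.71, 9.47 and 8.87 in normals (2.73 ± 0.64, adjusted p = 0.0337). Its receptor gene Ccr2 was at 0.94 ± 0.71 (adjusted p = 0.334), with normal 2 above most tumors.

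Csf2rb, the shared receptor chain for GM-CSF and related cytokines, rose by 1.82 ± 0.22 (limma adjusted p = 0.013), although its 3 probes differed by 0.52 to 1.82. Csf2, the GM-CSF gene, was 6.53, 7.14, 8.39 and 5.88 in tumors, and all 4 normals were below the detection limit of 5.59, so no fold or test of it is given. Spi1, which encodes PU.1, was dim, at 5.72, 7.45, 5.67 and 5.66 in tumors and 3.20, 5.46, 6.29 and 5.53 in normals (adjusted p = 0.304). The count of called genes was 0 without tumor 3 or normal 4, 1 without tumor 2, 2 without tumor 1 or normal 1, 3 without normal 2 and 10 without normal 3, of which 7 rose and 3 fell.

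Genes common to macrophages moved both ways. Of 17, 9 rose, 2 fell and 6 did not pass, with a median of 1.25 (7 rose and 2 fell with the block). Aif1, an actin-binding protein of macrophages, was 13.55, 13.31, 13.11 and 12.93 in tumors and 11.89, 12.01, 10.47 and 11.13 in normals (1.85 ± 0.35, limma adjusted p = 0.0223). The scavenger receptor Msr1 rose by 1.80 ± 0.32 (adjusted p = 0.0201) and Lst1 by 1.6 ± 0.43 (adjusted p = 0.0492). Adgre1, a surface receptor that marks mouse macrophages, was above all normals in every tumor but did not pass (1.32 ± 0.38, adjusted p = 0.0576).

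Mertk, a receptor with which macrophages engulf dying cells, went the other way. It was 8.70, 8.63, 7.75 and 9.72 in tumors, against 11.13, 11.42, 10.09 and 11.50 in normals, a fall of 2.34 ± 0.47 on the log2 scale (limma adjusted p = 0.0237). The lysosomal protease gene Ctss fell by 0.80 ± 0.21 (adjusted p = 0.0442). Both are genes that epithelium and other cells can also express. The source was not measured here, neither for these 2 nor for the genes that rose in any of the lists. Of the common macrophage genes, 0 were called without tumor 1, tumor 2, tumor 3, normal 1 or normal 4, 4 without normal 2 and 6 without tumor 4.

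Other genes of resident macrophages were called higher in tumors at a larger share than all genes, from few calls. Of 18 tested, 3 rose, 0 fell and 15 did not pass, where 6.64% of all genes were called higher and 7.14% lower. With the block 2 rose, where 4.57% of all genes did. The median was 0.51, against 0.15 over all genes, and 0.24 without normal 3. Lyve1, a hyaluronan receptor of perivascular macrophages and lymphatic vessels, was at -0.49 ± 0.23 (limma adjusted p = 0.176), but its 2 probes ranged in difference from -1.64 to -0.49. Folr2, a folate receptor of resident macrophages, was at 0.31 ± 0.53 (adjusted p = 0.666). Pf4, a chemokine of platelets and resident macrophages, was 14.42, 14.29, 14.77 and 14.82 in tumors and 13.11, 13.12, 13.35 and 12.51 in normals (1.55 ± 0.22, adjusted p = 0.0151). The growth factor Igf1 rose by 2.61 ± 0.30 (adjusted p = 0.013), but its 3 probes ranged in difference from -0.04 to 2.61. Ccl8 rose by 1.38 ± 0.37 (adjusted p = 0.0478), a call lost with the block (adjusted p = 0.0824). The count was 0 without tumor 3 or normal 4 and 5 without normal 3, 4 of them higher. Vsig4 was too dim to be tested.

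Of 9 monocyte genes tested, 3 rose, 0 fell and 6 did not pass (median 1.22; 4 rose with the block). Arg1, the arginase of suppressive myeloid cells, was 11.68, 11.94, 12.54 and 12.44 in tumors and 7.82, 9.38, 11.11 and 9.45 in normals (2.71 ± 0.63, limma adjusted p = 0.0332), with normal 3 the highest normal. F10, clotting factor X, rose by 2.42 ± 0.33 (adjusted p = 0.0139), and Thbs1, the matrix protein thrombospondin, by 1.22 ± 0.24 (adjusted p = 0.0225). For F10, normal 1 at 7.66 lay just below the limit of its own column, 7.70. Chil3, the monocyte gene with the largest difference, was spread from 10.50 to 15.60 in tumors and from 5.96 to 10.94 in normals, and did not pass (adjusted p = 0.0693; 0.0316 with the block). Without tumor 3 or normal 4, the count of monocyte genes called was 0, and it was 1 without tumor 1, tumor 2 or normal 1 and 5 without normal 3.

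**Figure D4:**
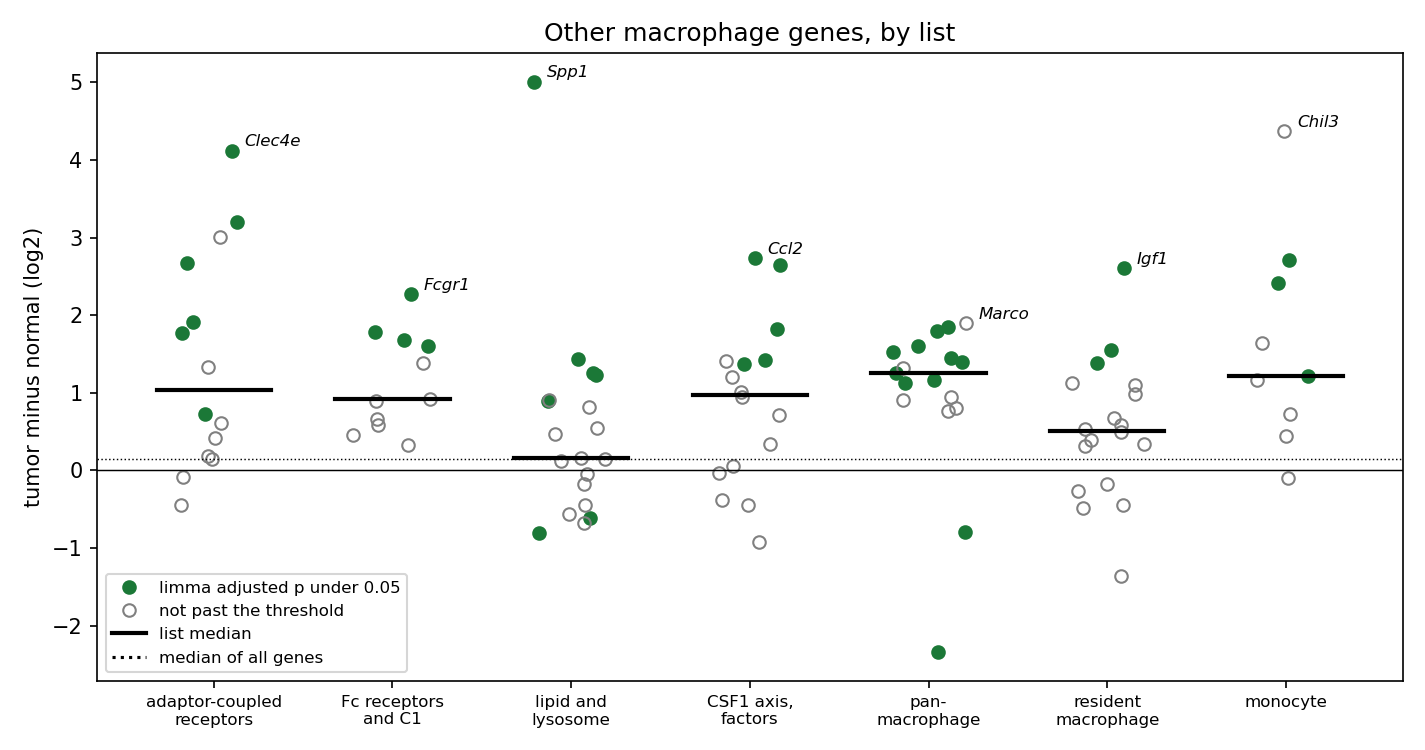
Difference between tumors and normals (log2) of the 104 genes of the 7 lists, 1 point per gene; filled points passed limma's adjusted p of 0.05, thick bars are list medians, the dotted line is the median of all genes and the gene farthest above 0 is named. The adaptor-coupled receptors have a median of 1.03 with Clec4e at 4.12, the lipid and lysosome genes one of 0.16 with Spp1 at 5.01, and the resident genes one of 0.51.

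Markers of other cells moved with the same groups, and their part in the results above was not tested. Of 11 neutrophil markers tested, 9 rose and 0 fell, where 6.64% of all genes were called higher and 7.14% lower. The median was 3.51, larger than that of any macrophage list. It is the difference of Cxcr2, which had 1 normal at or above the detection limit of 5.59, as had Mmp8, so its size is uncertain. The mean level of the neutrophil markers was 11 to 12.70 in tumors and 7.10 to 9.90 in normals, the highest normal being normal 3. S100a9, a calcium-binding protein that fills neutrophils, was 18.05, 17.82, 17.97 and 16.40 in tumors and 11.69, 12.76, 15.18 and 9.62 in normals (limma adjusted p = 0.025). Without tumor 3 the count was 0, without normal 4 or tumor 2 it was 1, without tumor 1 it was 2 and without normal 1 or normal 2 it was 3. Tumor 4, the lowest tumor for Tyrobp, C1qa, Fcgr3 and Srgn (at 14.54 level with tumor 3 after rounding), was also the lowest for S100a9, S100a8 (14) and Retnlg (12.34). The normals were mixed in this respect. Normal 4 had the lowest neutrophil level (7.10) and the lowest Tyrobp and C1qa. Normal 3 had the highest neutrophil level (9.90) but the lowest Fcgr3 and Srgn. Tyrobp, Fcgr3, Srgn, Fcer1g, Clec4e and Trem1 are known in neutrophils too. Which cells gave the RNA of any of the 10 genes was not tested.

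Mast cell markers were also higher, with 5 of 11 rising and 0 falling (4 with the block), and a mean level of 9.98 to 11.47 in tumors and 8.20 to 9.44 in normals. The histamine-forming enzyme Hdc rose by 3.91 ± 0.72 (limma adjusted p = 0.0212), while Cma1 and Kit were at 0.13 ± 0.30 and -0.95 ± 0.32 (adjusted p = 0.749 and 0.0869). The mast cell count was 0 without tumor 3, normal 1 or normal 4, 1 without tumor 1 or normal 2, 3 without tumor 2 and, without normal 3, 8 higher and 1 lower. Of 6 dendritic cell markers, 1 rose (2 with the block), with a mean level of 8.50 to 8.87 in tumors and 7.41 to 8.05 in normals. Of 12 T and natural killer cell markers, 3 rose and 0 fell, with 9.11 to 9.52 in tumors and 8.11 to 8.93 in normals. Without normal 3 these counts were 3 and 6, and with any other sample left out they were 0 and 0 to 2. Of 7 B and plasma cell markers, 0 passed limma's threshold (1 at an unadjusted p under 0.05; 1 called higher and 1 lower without normal 3), and the groups overlapped, at 10.22 to 11.08 in tumors and 9.24 to 10.91 in normals.

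Stromal and epithelial markers were counted in the same way. Of 9 endothelial markers, 1 rose (2 with the block, 4 higher and 2 lower without normal 3, and 0 or 1 without another sample), with a mean level of 9.91 to 10.20 in tumors and 9.10 to 9.85 in normals. Of 5 fibroblast markers, 0 passed in limma (1 at an unadjusted p under 0.05; median 1.1, and 0.46 with 1 called higher without normal 3), at 14.05 to 15.15 in tumors and 12.03 to 14.78 in normals. Of 5 smooth muscle markers, 0 passed in limma, also without adjustment, but 2 were called lower without normal 3 (median -0.38, and -0.84 without normal 3), at 15.04 to 16.13 in tumors and 14.64 to 16.96 in normals. The fibroblast level was lowest in normal 3 and highest in tumor 4 and normal 2, and Mrc1 was likewise lowest in normal 3 and highest in normal 2 and tumor 4. This was not particular to fibroblasts. Normal 3 was also the lowest of all 8 samples for smooth muscle (14.64), endothelial (9.10), B and plasma cell (9.24) and common macrophage genes (10.80). Cd163 was lowest in tumor 2, at 8.53, and a link of either gene to stroma was not tested. Of 7 colon epithelium markers, 2 fell, with 16.22 to 16.96 in tumors and 17.36 to 17.80 in normals (5 without normal 3, and 0 without tumor 2, tumor 3, normal 1, normal 2 or normal 4). The epithelial markers Krt8 and Epcam were high in all 8 columns, at 18.89 to 19.32 and 17.21 to 17.63. Small intestine markers overlapped, at 8.0 to 10.29 in tumors and 8.28 to 10.86 in normals, and 0 of 7 passed in limma (1 at an unadjusted p under 0.05, and 1 called lower without normal 3).

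The sign for Trem2 depends on which deposited values are taken. With the scanner files kept under the sample they were filed with, Trem2 differed by -0.50 ± 0.96, C1qa by 0.31, Tyrobp by 0.47 and Cd68 by 0.15, and limma called 0 probes (600 had an unadjusted p under 0.05). In that arrangement the files that match no column are 3 of the 4 tumor files and 1 of the 4 normal files. Among the 4 files that do match a column, Trem2 relative to each array's 75th percentile was 0.69 to 1.13 in those of tumor columns and -1.46 to -1.23 in those of normal columns. In the 4 files that match none it was -3.32 to -1.14, below both normal columns' files in 3 of the 4. With the 4 matched columns alone, the table's Trem2 difference was 2.14 and that of Cd163 -1.10, and limma called 0 probes (7431 had an unadjusted p under 0.05).

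**Figure D5:**
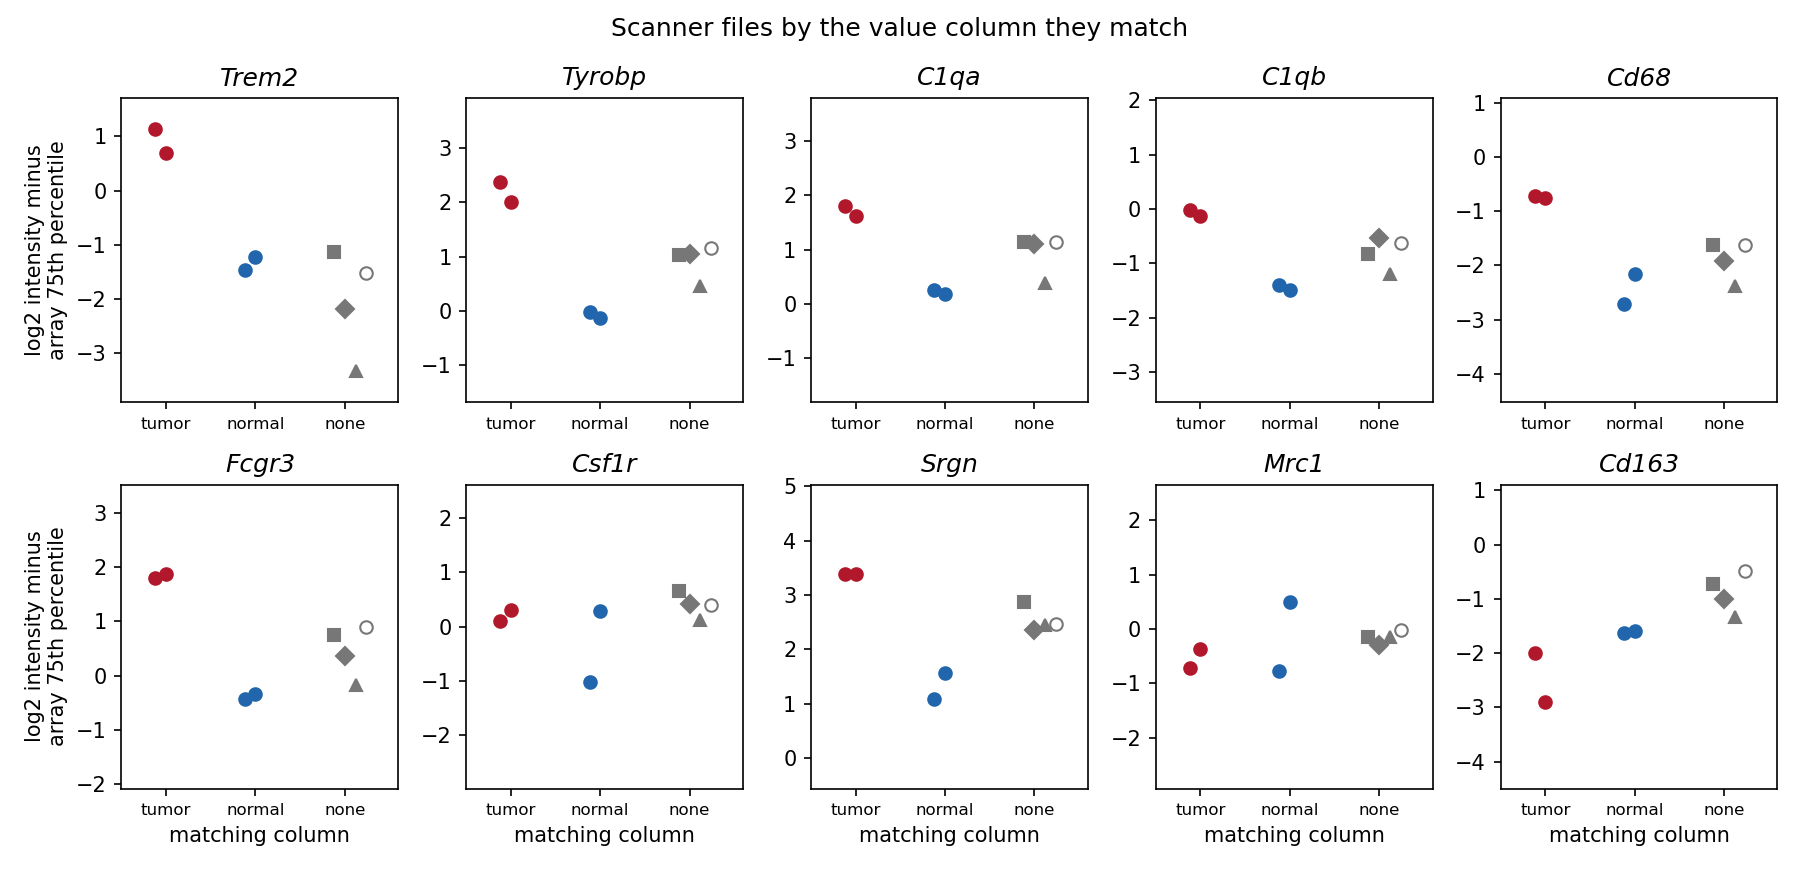
Log2 scanner intensity minus the array's 75th percentile for the 10 genes in the 8 scanner files, grouped by the value column each file matches: tumor (red), normal (blue) or none (grey; square, diamond and triangle for the files under tumors 2, 3 and 4, open circle for the file under normal 1). For Trem2 the files of tumor columns lie at 0.69 to 1.13, those of normal columns at -1.46 to -1.23 and those matching no column at -3.32 to -1.14.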

How the data were processed

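Scanner files with spot intensity values of 1-colour Agilent arrays (design 014868, probe positions on mm8) came, per the file headers, from Feature Extraction 9.5.1.1, while the submitters' processing notes name version 10.1.1.1. The deposited table holds 1 log2 column per sample, quantile-normalised by the authors to judge by its values: every column has the median 8.51. Its columns were matched to files by Spearman correlation. Other numbers in the deposited files, such as quality flags, were used to find probes well above background. A probe was kept at a value of at least 5.59 on 4 of 8 columns, 5.59 being the 95th percentile of probes that the software did not flag as well above background, taken as the median over the 4 matched columns (4.50 to 7.70, so that dim values in normal 1 can be background). Names came from RefSeq's table of GRCm38.p6: 24367 probes by accession, 6307 by symbol and 2425 by synonym, with 8075 keeping the file's name.

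The comparison of tumors with normals used limma 3.58.1 under R 4.3.3 (functions lmFit and eBayes, 2-sided, Benjamini-Hochberg over 31871 probes, threshold 0.05), checked on simulated data. Tables and figures were made with Python 3.11.15, pandas 2.3.3 and matplotlib 3.10.9. SD is over n = 4 samples and SE is of a difference. Samples that share a number deviated together (r = 0.227, 0.39, 0.565 and 0.381 for numbers 1 to 4), though some of different numbers did too (tumor 4 with normal 2 at 0.392, tumor 2 with normal 4 at 0.379, tumor 1 with normal 3 at 0.313). A fit with the number as a block was therefore also made, and its value stands beside a count or a named gene where it changes a call. Alternatives were the scanner values as filed (scaled to the 75th percentile, normexp with offset 50 and quantile normalisation, or with slide as a block), other filters, array weights, the matched columns alone, the mean over a gene's probes and each sample left out.

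The genes and the lists were chosen with earlier results of these data known. Named from each list were the 3 called genes with the largest difference in each direction, from each marker list up to 3 with the highest level, and the 5 genes most like Trem2 and Mrc1. Others are said to be named after their values were seen, or are given as genes that did not pass: Syk, Hcst, Lpl, Cd9, Ccr2, Spi1, Adgre1, Lyve1, Folr2 and Chil3 were likewise chosen with values in view.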

Additional observations from a re-analysis of the deposited data

Results flagged for a closer look

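Of 36 groups of 4 samples examined, 2 held a sample far from the others by Dixon's test, and chance flags about 1 in 20. Fcgr3 was 12.45 in tumor 4, against 13.18 to 13.27 in the other tumors, a gap of 0.889 of the group's range. Cd163 was 8.66 in normal 3, against 9.92 to 10.06 in the other normals, a gap of 0.902 of the group's range.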

How the results depend on the processing

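With the scanner files as filed, Trem2 reversed to -0.50 (also with the slide as a block) and to -0.39 with normexp and quantile normalisation. The difference between the Trem2 and C1q kind and the Mrc1 and Cd163 kind moved to 0.03, 0.03 and 0.12 in these settings, from 1.84. They called 0 probes in limma (600, 431 and 739 at an unadjusted p under 0.05) and 0 genes of any of the 7 lists, as did the matched columns alone (7431 unadjusted), a fit with fewer samples. Array weights called 22669 probes, and 12 lipid and lysosome, 13 CSF1 axis and 9 resident genes. Against 4285 probes in all samples, leaving 1 sample out gave 1 (without tumor 3) to 16474 (without normal 3), with 35 without normal 4; the lists ranged from 0 to 8 adaptor-coupled, 5 Fc and C1, 8 lipid and lysosome, 10 CSF1 axis, 13 common macrophage, 5 resident and 5 monocyte genes, and the difference between the kinds from 1.58 to 2.17. The cause of these moves was not tested. With the replicate number as a block 3605 probes were called and the difference between the kinds stayed at 1.84. Among genes named by the rule, the calls of Lipa and Ccl8 alone were lost with it. Without a filter 3057 probes were called. The 7 genes whose groups do not overlap kept their sign in every setting other than the scanner files as filed, where Trem2 did not. Dim probes limit Csf2 and Spi1.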

Other observations

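The 4 scanner files that match no column differ from the others in more than Trem2. Relative to each array's 75th percentile, the mean of 7 small intestine markers was 1.90 to 4.86 in them and -3.39 to -0.95 in the 4 matching files. Cd163 was -1.34 to -0.49 in the files without a column, above the -2.90 to -1.99 of the tumor columns' files and the -1.62 to -1.59 of the normal columns' files. Tyrobp was 0.46 to 1.15 in the files without a column, between 2.0 to 2.37 in the tumor columns' files and -0.13 to -0.02 in the normal columns' files, and C1qa was 0.38 to 1.14, between 1.62 to 1.80 and 0.19 to 0.25. The mean of 17 common macrophage genes was 0.68 to 1.1 in the files without a column and 0.21 to 1.16 in the matching files. Which tissue those 4 files measure was not tested.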
